A study of Caenorhabditis elegans with 2 samples.

Results

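The 10 genes described here decide sexual fate in Caenorhabditis elegans or build the complex that balances X-linked expression between the sexes. They are xol-1, sdc-1, sdc-2, sdc-3, dpy-21, dpy-26, dpy-27, dpy-28, dpy-30 and mix-1. They were chosen by name from 19973 protein-coding genes of the nuclear chromosomes in Ensembl release 115 (WBcel235, the same assembly as ce11), and all 10 were found there. For each gene, every region with its summit between 6000 bp upstream of the annotated 5' end and the far end of the gene was taken. The regions come from chromatin immunoprecipitation with sequencing (ChIP-seq) of ZTF-4, a protein named as a zinc finger factor, in whole worms of both sexes at the L1 larval stage. All animals were of strain OP322, which has the unc-119(ed3) allele on chromosome III and the insertion wgIs322 with an eGFP fusion of ztf-4, and the labels name no antibody beyond the target. There was 1 group of 2 biological replicates, and no control library or second condition was analysed here. Since the animals were a mixture of sexes and tissues, a region cannot be assigned to either sex or to a cell type.

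Sex in this worm is set by the ratio of X chromosomes to autosomes, which is read out through xol-1, an X-linked switch gene that is active in embryos with 1 X and held silent in those with 2. Where xol-1 is silent, SDC-2 acts with SDC-1 and SDC-3 to bring a complex related to condensin onto both X chromosomes, which lowers their transcription, and to repress the male fate gene her-1. The complex holds the SMC proteins DPY-27 and MIX-1 with DPY-26, DPY-28 and a further condensin subunit, and is joined by DPY-21, a demethylase of histone H4 lysine 20, and DPY-30, which also serves in histone H3 lysine 4 methylation. It is recruited at sites on X that hold copies of a short motif with the core CGCAGGG.

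The authors' list of peaks that passed the irreproducible discovery rate (IDR) threshold held 1898 peaks, with signal values from 49.6 to 904. IDR filtering is based on how the ranks of regions recur between replicates. The signal value is the number that the authors' caller gave each region, on a scale that the sources used here do not state. It was therefore ranked within a list, rank 1 being the strongest. Relaxed lists, which also hold background regions, had 23044 regions for the pooled replicates, 27643 for replicate 1 and 27140 for replicate 2. Read depth is unknown.

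The 201 bases around the summit are shown for the IDR peaks upstream of xol-1 (the stronger of a pair), sdc-2, dpy-21 and dpy-30 and inside mix-1, because these peaks carry the results below. They are from the plus strand of ce11, 5' to 3', at chrX:8036291-8036491, chrX:11522164-11522364, chrV:17951368-17951568, chrV:12191053-12191253 and chrII:10840196-10840396. Capitals mark matches on either strand to CGCAGGG (xol-1), to GAGAGAG (sdc-2 and dpy-21), below called the purine repeat, or to GGTTCGA, the core of the internal B box of tRNA promoters (mix-1).
xol-1: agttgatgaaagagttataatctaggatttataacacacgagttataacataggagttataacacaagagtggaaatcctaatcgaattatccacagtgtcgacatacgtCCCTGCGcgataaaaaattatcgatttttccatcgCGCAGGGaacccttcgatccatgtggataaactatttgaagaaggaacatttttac
sdc-2: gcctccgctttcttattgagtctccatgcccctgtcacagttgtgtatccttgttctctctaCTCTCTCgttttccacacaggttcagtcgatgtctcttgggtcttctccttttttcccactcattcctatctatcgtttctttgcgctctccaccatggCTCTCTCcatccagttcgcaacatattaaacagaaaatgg
dpy-21: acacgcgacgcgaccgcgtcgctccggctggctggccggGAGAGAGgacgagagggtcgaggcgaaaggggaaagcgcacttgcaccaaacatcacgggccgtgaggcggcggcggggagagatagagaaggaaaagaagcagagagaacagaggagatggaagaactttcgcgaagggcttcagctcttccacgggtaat
dpy-30: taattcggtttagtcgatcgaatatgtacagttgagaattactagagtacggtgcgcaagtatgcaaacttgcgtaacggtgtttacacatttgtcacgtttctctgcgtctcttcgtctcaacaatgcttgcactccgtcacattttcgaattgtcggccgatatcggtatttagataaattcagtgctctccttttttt
mix-1: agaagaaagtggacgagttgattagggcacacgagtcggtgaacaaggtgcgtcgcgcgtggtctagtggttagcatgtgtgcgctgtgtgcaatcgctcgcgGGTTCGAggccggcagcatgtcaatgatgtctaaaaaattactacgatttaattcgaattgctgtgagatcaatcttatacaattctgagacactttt

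ZTF-4 regions near these genes ranged from one of the strongest sites of the genome to none that passed the threshold. Of the 10 genes, 6 had an IDR summit between 6000 bp upstream and the gene end, namely xol-1, sdc-2, dpy-21, dpy-28, dpy-30 and mix-1 (60%, exact 95% Clopper-Pearson interval 26.2 to 87.8), against 15% of all protein-coding genes. The member windows were long, with a median of 13916 bp against 8027 bp for all genes. Among genes with windows of 10000 bp or more, 21.2% of all and 4 of the 8 members had an IDR summit (50%, interval 15.7 to 84.3). In the promoter window, which spans 1000 bp before and 200 bp after the 5' end, the count was 2 of 10, sdc-2 and dpy-30 (20%, interval 2.52 to 55.6), against 6.07% of all genes. Counting a summit only where no other protein-coding gene had a nearer 5' end left xol-1, sdc-2 and dpy-30 (3 of 10, interval 6.67 to 65.2, against 6.89%). The rule for the 6000 bp window named the strong peak upstream of xol-1 beforehand. Its place in the counts of 6 and 3 of 10 was therefore known in advance, and these counts are description only. The intervals are wide at this number of genes and cover counting error only. Those of the promoter, nearest-gene and long-window counts include the share of all genes.

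**Figure D1:**
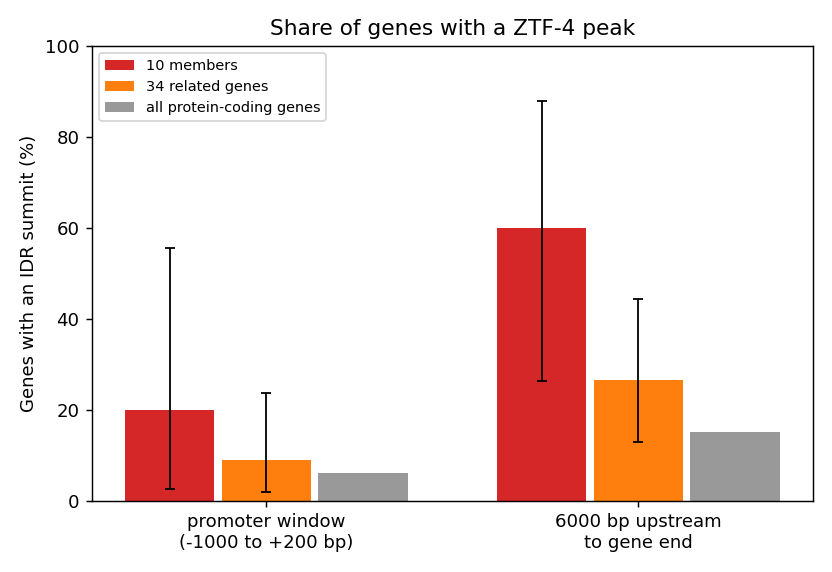
Percent of genes with an IDR summit in the promoter window (left) or from 6000 bp upstream to the gene end (right), for the 10 members, 34 related genes and all protein-coding genes; whiskers are exact 95% Clopper-Pearson intervals. The members stand at 20% and 60%, all genes at 6.07% and 15%.

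The relaxed pooled list placed a region in the promoter window of 7 of the 10 members (70%, interval 34.8 to 93.3), against 32.6% of all genes. Anywhere in the wider window, 9 of the 10 had one (90%, interval 55.5 to 99.7, which includes the 72.1% of all genes). Only dpy-26 had none in the pooled list. The 7 IDR peaks of the member windows amount to 4.77 per 100 kb of window, against 1.89 per 100 kb over the nuclear genome. These densities are not like for like, since the genome also holds sequence outside such windows. The density over the windows of all genes was not computed. Of the 7 peaks, 2 lie upstream of xol-1, and those of dpy-28, dpy-21 and mix-1 lie nearer to the 5' ends of other genes. All 7 had a region with a summit within 100 bp in both replicate lists, as had 93.1% of all IDR peaks, a share that the IDR filter itself raises.

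**Figure D2:**
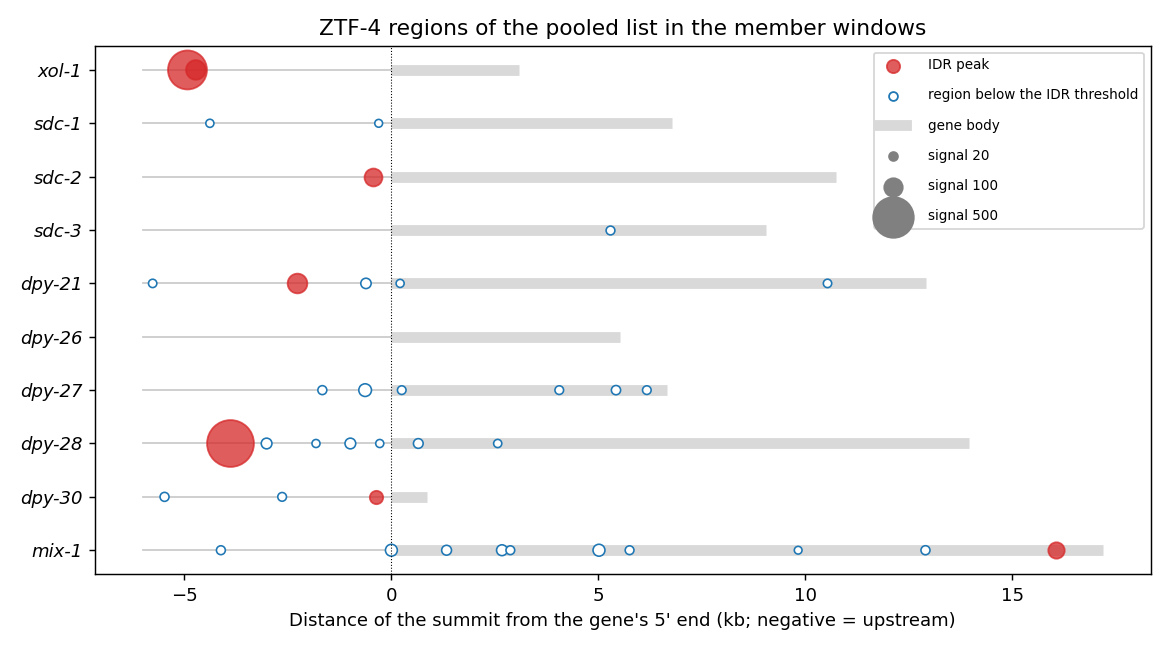
Summits of the pooled list in each member's window, by distance from the 5' end in kb; marker area grows with the signal value, filled red markers passed the IDR threshold, open blue ones did not, and grey bars are gene bodies. The large markers lie 4922 bp upstream of xol-1 (signal 462) and 3887 bp upstream of dpy-28 (signal 670), while sdc-1, sdc-3, dpy-26 and dpy-27 have no filled marker.

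The strongest peak for which a member had the nearest protein-coding 5' end lay far upstream of xol-1 (WBGene00006962, chrX:8041313-8044409, plus strand). It covered chrX:8036294-8036540, was intergenic, and had its summit at -4922 bp, negative positions being upstream. Its signal was 217 in replicate 1 (rank 18), 242 in replicate 2 (rank 7) and 462 in the IDR list (rank 12), and the summits of the replicates lay 3 and 0 bp from it. Both replicates thus placed it among their 20 strongest regions, at the same base or a few away. A weaker second peak followed at chrX:8036551-8036638, with its summit at -4720 bp and signals of 50.5 in replicate 1 (rank 529), 61.0 in replicate 2 (rank 345) and 114 in the IDR list (rank 377). No region of any of the 4 lists had its summit nearer to the start of xol-1 or within the gene.

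The site lies in a long gap between protein-coding genes. The next one on the other side, C34D10.1, ends 4777 bp before the stronger summit, and xol-1 has the nearest protein-coding 5' end. A tRNA gene (WBGene00022939, minus strand, chrX:8036685-8036757) and the non-coding gene C18A11.13, which overlap, lie closer. Their nearer edges are 294 and 283 bp beyond the stronger summit, and 92 and 81 bp beyond the second. Another tRNA gene lies 914 bp beyond the second summit. Of all IDR summits 9.8% were as far or farther from the nearest protein-coding 5' end, and 11.1% of those on X. Among the 12 IDR peaks at least as strong, itself included, only this one lay at such a distance. That is 8.33%, close to the share of all IDR summits. Both cut-offs are the peak's own values, so this count could not fall below 1. On X the peak ranked 3 of 359 by signal.

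**Figure D3:**
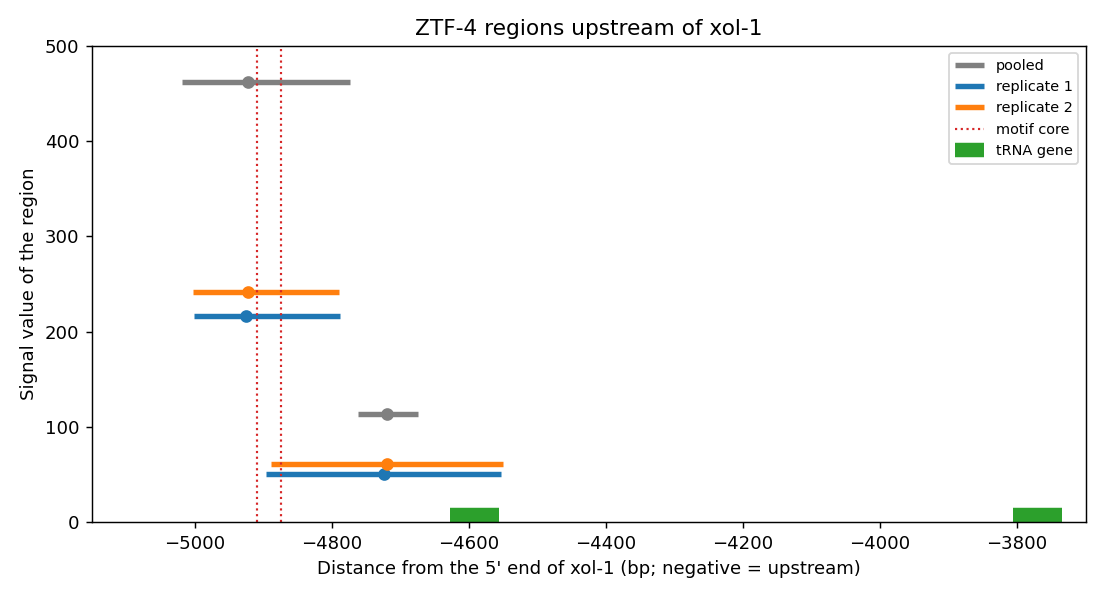
Regions upstream of xol-1 in the pooled and replicate lists, as horizontal bars at their signal value (vertical axis) over their distance from the 5' end of xol-1 (bp); dots are summits, dotted lines are matches to the motif core and green blocks are tRNA genes. The stronger region has its summit at -4922 bp in the pooled list, with signals of 217 and 242 in the replicates, and both motif matches lie inside it, next to the summit.

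The stronger xol-1 peak held 2 copies of the core of the recruitment motif, as its sequence above shows. Their centres were 13 and 48 bp from the summit, on opposite strands and 35 bp apart. Read on their own strand with 3 bases to each side they were tcgCGCAGGGacg and tcgCGCAGGGaac, with 11 of 13 positions identical, where capitals mark the core. The second xol-1 peak and the IDR peaks of the other members had no copy within 150 bp of the summit.

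Copies of this core were present within 150 bp of the summit in 22 of the 359 IDR peaks on X (6.13%, exact interval 3.88 to 9.13) and in 25 of the 1539 on autosomes (1.62%, 1.05 to 2.39). Of the 10 strongest X peaks 7 had it. On X the median signal was 246 for peaks with the core and 71.7 for those without, while on autosomes it was 72.3 and 72.2. Only 4 X peaks had 2 copies or more, the one upstream of xol-1 and those nearest to W02H3.3 (signal 499), cest-16 (signal 402) and gtr-1 (signal 296). A match is a run of letters and does not show that the complex was bound there, and binding of the complex was not measured in these files.

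Of the SDC genes, sdc-2 (WBGene00004746, chrX:11522707-11533450, plus strand), whose protein is the main link between sex and the X-bound complex, had a peak. The peak, at chrX:11522089-11522438, was intergenic with its summit at -443 bp. Its signal was 35.7 in replicate 1 (rank 1075), 54.4 in replicate 2 (rank 434) and 94.2 in the IDR list (rank 571), with the same summit base in all of them. Replicate 2 ranked it higher than replicate 1. The log2 ratio of the signals, replicate 2 over replicate 1, was 0.61, higher than in 87% of the 1767 matched IDR peaks, whose median was -0.01 and whose central 90% ran from -1.06 to 0.97. The peak held 2 purine repeats, within 64 bp of the summit. It was the only region of the pooled list in the window. The non-coding antisense gene anr-16, within sdc-2, held the summit of a single weak region of replicate 1 (signal 11.6, rank 12416).

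The other SDC genes, which encode zinc finger proteins, had only background-level regions. At sdc-1 (WBGene00004745, chrX:16275763-16282534) the pooled list held 2, with signals of 16.2 at -4381 bp and 14.8 at -304 bp (ranks 18120 and 21624). Near the 5' end replicate 1 had a region of signal 14.7 at -204 bp (rank 7148). Replicate 2 had 3 there, with signals of 10.3, 7.34 and 8.79 at -590, -337 and 109 bp. The replicates did not place a summit there at the same position. At sdc-3 (WBGene00004747, chrV:15039148-15048207, minus strand) the 1 pooled region lay in a coding exon at 5277 bp (signal 19.7, rank 11853). It had a counterpart in replicate 1 (signal 14.3) and none in replicate 2, whose strongest region was at -2586 bp, nearer to 2 other genes. The pooled signals of both genes lie at or below the median of the pooled list, 20, those of sdc-1 near its minimum of 14.3, and all are below the 49.6 of the weakest IDR peak.

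The SMC gene dpy-27 (WBGene00001086, chrIII:3813018-3819679, minus strand) encodes the subunit that sets the dosage compensation complex apart from other condensins. The strongest region of its window did not pass the threshold. It was intergenic at -631 bp, with signals of 23.6 in replicate 1 (rank 2485), 22.8 in replicate 2 (rank 2427) and 45.3 in the pooled list (rank 2210). The summits, at -629 and -632 bp in the replicates, lay within a few bases of each other, and the ranks were alike. Its pooled -log10 q value was 2.95, against a maximum of 3.50 in that list. The weakest of the 1898 IDR peaks had a signal of 49.6. The other 5 pooled regions of that window had signals from 18.8 to 22.2.

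The SMC gene mix-1 (WBGene00003367, chrII:10824246-10841424, plus strand), whose product also serves in mitotic condensin, had its peak near the other end of the gene. The peak at chrII:10840121-10840470 had its summit in an intron, 16050 bp downstream of the 5' end. Its signal was 31.3 in replicate 1 (rank 1400), 46.3 in replicate 2 (rank 599) and 78.1 in the IDR list (rank 820). The 5' ends of M106.8, M106.2 and VM106R.1 lay nearer to the summit than that of mix-1. The summit lay 21 bp before M106.6, a snoRNA gene of 75 bp on the same strand, and 6 bp from the match to GGTTCGA. That match lies upstream of M106.6 as annotated, and the annotation has no tRNA gene within 6000 bp of the summit. A match within 150 bp of the summit was present for 3.58% of all IDR peaks. The share was 6.69% on X and 2.86% on autosomes, so this motif too was more frequent in the X peaks. Both xol-1 peaks also had one, at -147 and 110 bp from their summits. The former lay outside the called regions of all lists. The latter lay inside the tRNA gene, outside the region of the IDR and pooled lists (chrX:8036551-8036638). The wider regions of replicate 1 (chrX:8036417-8036760) and replicate 2 (chrX:8036424-8036763) held this match and the whole tRNA gene. At the 5' end of mix-1 itself a pooled region of signal 39.2 (rank 2865) lay 3 bp downstream of the start. It had signals of 16.5 in replicate 1 (rank 5344) and 20.9 in replicate 2 (rank 2932) and stayed below the threshold. In all, 10 pooled regions lay in this window of 23179 bp, the longest of the members.

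The gene dpy-28 (WBGene00001087, chrIII:10763131-10777076, plus strand), for a HEAT-repeat condensin subunit, had the strongest peak of any member window, but other genes lie nearer. The peak at chrIII:10759116-10759388 had signals of 328 in replicate 1, 344 in replicate 2 and 670 in the IDR list, rank 3 in each. Its summit was at -3887 bp from dpy-28 and at -63 bp from tasp-1, which lies between them on the same strand and ends shortly before dpy-28 begins. The 5' ends of K01G5.10, rnf-113 and hpl-2 were also nearer. The peak held a purine repeat, centred 55 bp from its summit. Around the start of dpy-28 the pooled signals were 31.2 at -988 bp, 16 at -278 bp and 24.9 at 653 bp, with ranks of 4381, 18412 and 7059, so no region there passed.

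At dpy-26 (WBGene00001085, chrIV:12445801-12451335, minus strand), which encodes the kleisin subunit, neither the pooled list nor replicate 1 had a region. Replicate 2 had 4, with signals from 7.49 to 13.6 (best rank 7461). A peak at this gene was not detectable in these lists.

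The H4 lysine 20 demethylase gene dpy-21 (WBGene00001080, chrV:17936282-17949193, minus strand) had a peak at chrV:17951293-17951642, intergenic, with its summit at -2275 bp. Its signal was 50.8 in replicate 1 (rank 521), 68.2 in replicate 2 (rank 277) and 115 in the IDR list (rank 374). The replicates placed the summit 73 and 8 bp from that of the IDR list. The small gene Y59A8B.24, transcribed the other way, had the nearer 5' end, 481 bp from the summit. Nearer to dpy-21 a pooled region at -611 bp had a signal of 28.9 (rank 5101), with 25.3 at -603 bp in replicate 1 and 17.9 at -791 bp in replicate 2. The peak was rich in G and C, at 61.2% of the 201 bases, above the 55.2% that bounds the upper 5% of IDR peaks, and it held a purine repeat. This repeat was present within 150 bp in 27.4% of all IDR peaks. The weaker xol-1 peak, at 28.9%, lay below the lower bound of 32.3%.

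The small gene dpy-30 (WBGene00001088, chrV:12191519-12192385, plus strand), shared by dosage compensation and H3 lysine 4 methylation, had a promoter peak close to the threshold. The peak at chrV:12190978-12191327 was intergenic with its summit at -366 bp and a signal of 50.8 in the IDR list (rank 1822 of 1898). Replicate 1 gave 33.3 (rank 1218) and replicate 2 gave 19.9 (rank 3271), so in replicate 2 alone it would not be among the 1898 strongest regions. Its log2 ratio of -0.75 was low among matched peaks, with 10.4% of them lower. Replicate 2 had a somewhat higher region, 22.1 (rank 2602), at 845 bp, inside the overlap of dpy-30 with rnp-1, which had no counterpart in the other lists. None of the motifs searched was in the dpy-30 peak.

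**Figure D4:**
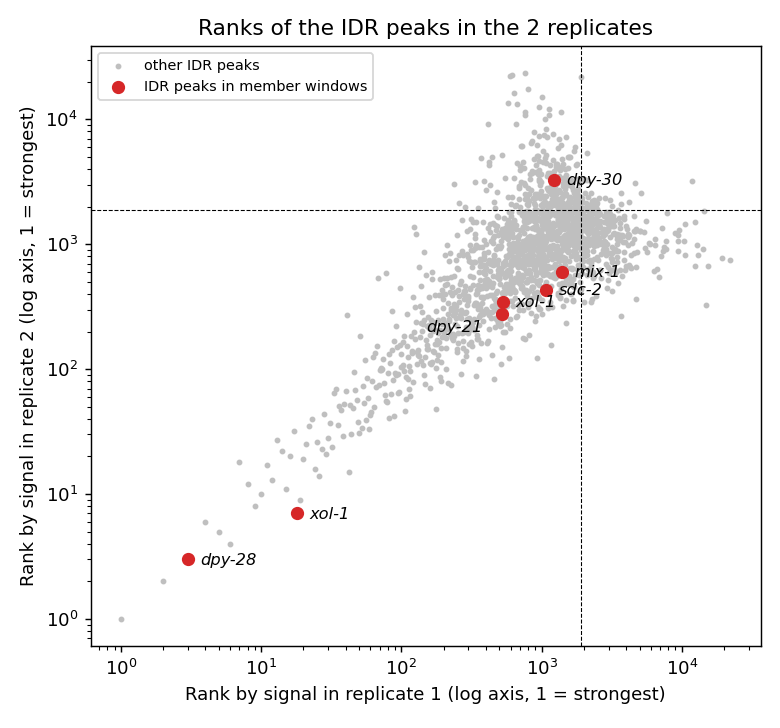
Rank by signal in replicate 1 (horizontal) and replicate 2 (vertical) for IDR peaks matched in both replicates, on log axes; red points are the 7 peaks of the member windows and dashed lines mark rank 1898. The stronger xol-1 peak (18 and 7) and the dpy-28 window peak (3 and 3) lie near the origin, and dpy-30 (1218 and 3271) alone among the 7 lies beyond a dashed line.

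Genes that act with the members had promoter peaks at a share near that of all genes. Of 34 such genes, all annotated, 3 had an IDR summit in the promoter window (8.82%, exact interval 1.86 to 23.7, against 6.07% of all genes). From 6000 bp upstream to the gene end 9 had one (26.5%, 12.9 to 44.4, against 15%). Both shares of all genes lie inside these intervals. None of the 3 X signal elements fox-1, sex-1 and ceh-39, which repress xol-1, had an IDR summit in either window. Of the autosomal signal elements, which oppose them, sea-2 had 2 intronic peaks (signals 75.5 and 50) and sea-1 had none.

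Of 16 genes that act below the SDC proteins in sex determination, among them her-1, tra-1 and the fem genes, 0 had a promoter peak (exact interval 0 to 20.6, which includes the 6.07% of all genes), and 3 had a peak in the wider window (18.8%, 4.05 to 45.6, against 15%). These were tra-2, which encodes the membrane receptor that HER-1 binds, sup-26, for an RNA-binding repressor of tra-2, and tra-4. Of the tra-2 peaks the one at -2905 bp lies in the promoter window of eif-2Bgamma. The strongest of these was intergenic at -1933 bp from sup-26 (chrIII:4282014-4282295), with signals of 169 in replicate 1 (rank 32), 175 in replicate 2 (rank 24) and 328 in the IDR list (rank 32). It stood apart from the others, whose IDR signals ran from 52.8 to 89.4.

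Of the 5 other condensin subunit genes, smc-4, the mitotic counterpart of dpy-27, had a promoter peak, at -181 bp (signal 58.5), which also lies in the promoter window of F35G12.7, while capg-1, capg-2, kle-2 and hcp-6 had none. That is 1 of 5 (20%, exact interval 0.505 to 71.6), an interval that includes the 6.07% of all genes. The counts of 1 of 6 among the partners of DPY-30 (0.421 to 64.1) and 1 of 2 among the H4 lysine 20 methyltransferases (1.26 to 98.7) have intervals that also include it. Of the 6 partners of DPY-30, set-16, an H3 lysine 4 methyltransferase, had a strong peak at -184 bp. Its signals were 168 in replicate 1 (rank 33), 124 in replicate 2 (rank 64) and 298 in the IDR list (rank 38), and the promoter window of drr-2 shares it. Another partner, ash-2, had a peak at 495 bp (signal 107), in the promoter window of Y17G7B.20, and one at -5206 bp (signal 88.1), in that of acbp-6. Of the H4 lysine 20 methyltransferases, set-4, which makes the higher states of methylation on which DPY-21 acts, had a promoter peak at -255 bp, with signals of 65.0 in replicate 1 (rank 319), 76.3 in replicate 2 (rank 218) and 140 in the IDR list (rank 249). The peak of set-1 lay at -1494 bp (signal 87.3), in the promoter window of jhdm-1.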

How the data were processed

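The labels give 1 group of 2 biological replicates. The authors, per the deposited records, made relaxed lists for each replicate and for pooled alignments, each with a control, and derived the IDR list from them. Aligner, caller and cutoff were not stated there. The signal value and the -log10 q value of each region are used as deposited in ce11. The IDR peaks are exactly the 1898 strongest pooled regions. The ce10 lists were not used, because the annotation is of ce11.

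Summits were placed against Ensembl release 115 genes, of which the outermost annotated 5' end was used. For trans-spliced genes it can lie downstream of the true start. Sequence came from RefSeq's copy of WBcel235, in which no region passed a chromosome end. Replicate regions were matched within 100 bp. Motifs were searched on both strands within 150 bp of the summit, and GAGAGAG and GGTTCGA were chosen after the sequences were seen. Intervals are exact binomial (Clopper-Pearson). No test was run, because there is 1 group. Window placement and motif search were tested on simulated data. Members and gene lists were chosen with earlier results of these data known. All members are named whatever their values, with every IDR peak in the window and the nearer genes, and related genes with a promoter peak. Other related genes were named after their values were seen. Python 3.11.15, pandas 2.3.3, SciPy 1.17.1 and pysam 0.24.0 were used.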

Additional observations from a re-analysis of the deposited data

How the results depend on the processing

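The alternatives were other promoter windows, the stronger peaks only, the pooled relaxed list, either replicate alone and other match distances. The count of 2 members with a promoter peak fell to 0 in the narrow window (300 bp before and 100 bp after the start), to 1 (sdc-2) among the 949 stronger peaks, and was 7 in the pooled relaxed list. Over either replicate alone it ran from 1 to 2, since dpy-30 was lost without replicate 1. The 3 related genes became 6 in the wide window (2000 bp before, 500 bp after) and 14 in the relaxed list. With a summit counted only for the nearest gene, the 6 members with a peak in the longer window became 3, and either replicate alone gave 5 to 6. The rank of the stronger xol-1 peak ran from 7 to 18 over either replicate. The other settings kept each count within 1.5 times its value. No paired analysis was possible because there is only 1 group. Read depth is unknown, so weak regions at sdc-1, sdc-3 and dpy-26 cannot be told from missed peaks.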
